A study of Danio rerio with 6 samples.

Results

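Fgf signalling genes were taken as every gene of the deposited table whose symbol starts with fgf or fgfr and a number, fgfrl, fgfbp, spry and a number, spred, dusp6, etv4, etv5 or il17rd. The rule found 59 of the 24470 genes in the table. By role these were 24 secreted ligands, 7 intracellular Fgf genes, 5 Fgf-binding proteins, 9 receptors and receptor-like genes, 12 feedback inhibitors and ETS-family targets, and 2 genes that only carry a receptor in their name. The comparison was between treated and control zebrafish larvae, with 3 libraries each. All carried the transgene Tg(Brn3C:mGFP), whose promoter comes from a hair cell transcription factor gene and drives a membrane-bound green fluorescent protein. The treated group was kept for 48 h, starting at 3 days post fertilization, in 4-octyl itaconate at 2.5 µM. This compound is an ester of itaconate, a metabolite of activated immune cells, that can enter cells. Control libraries are labelled only as control, although the treatment text attached to them is that of the treated libraries, and larvae of either group were 5 days old at collection. Neither a vehicle nor how many larvae or clutches made up each library is stated in the sources used here. The p-values therefore measure the spread between these libraries, which may be technical.

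Fgf ligands are secreted proteins that bind Fgf receptors together with heparan sulphate on the cell surface. The receptors are tyrosine kinases that signal largely through Ras and the kinase Erk. Erk activity turns on ETS-family transcription factor genes and also genes of inhibitors, among them sprouty, spred and dusp6, which damp the same pathway. In the zebrafish lateral line, Fgf3 and Fgf10 signalling in the migrating primordium shapes the rosettes that become neuromasts, and Fgf signalling also acts in the brain, ear, heart, fins, muscle and skeleton. A duplicated genome has left zebrafish with a and b copies of many of these genes.

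Values were the authors' normalized counts, meaning gene counts divided by a factor per library. From them 14763897 to 23507208 whole reads per library were recovered. Treated replicate 1 stood apart from the other treated libraries along the second principal component, which held 6.83% of the variance. The libraries were bulk libraries of larvae. None of the listed markers of neurons, eye, muscle, liver, gut, skin, skeleton or lateral line was at 0 in all 6 libraries. That check pooled both groups, so it cannot show which tissues either group held. Neuron and glia markers took 0.112% to 0.154% of the summed normalized counts in treated and 0.807% to 0.897% in control libraries, and 23 of 27 fell. Eye markers took 0.0864% to 0.399% against 0.810% to 1.40% (19 of 25 fell). Liver markers took 2.47% to 2.54% against 0.0621% to 0.0789% (22 of 22 rose, by a median log2 fold change of 5.04), exocrine pancreas and intestine markers 1.09% to 1.96% against 0.0223% to 0.0304% (24 of 25 rose, median 5.78), and lateral line markers 0.0704% to 0.0999% against 0.0430% to 0.0497% (10 rose and 7 fell of 21). Skeletal muscle markers took 14.0% to 16.6% against 1.996% to 2.07% (27 of 28 rose), skin and ionocyte markers 1.198% to 2.21% against 0.472% to 0.583% (21 of 24 rose), and cartilage, bone and fin mesenchyme markers 0.520% to 0.759% against 0.195% to 0.224% (14 of 19 rose). In such bulk libraries fewer cells of a type, less RNA per cell and unequal sampling of tissue between groups cannot be told apart. The part of these marker shifts in the Fgf results was not tested.

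Fgf genes moved in both directions in treated larvae, and each role held rises or falls. Of the 59 genes, 50 reached the mean of 10 normalized counts needed for testing, and 9 did not. Of those 50, 16 were higher and 15 lower in treated larvae at a limma adjusted p of 0.05, and 19 did not pass. Across all 20352 genes tested, 69.3% passed that threshold, 35.0% higher and 34.3% lower. In 36 of the 50 the groups did not overlap, 19 with the treated libraries higher and 17 with them lower, against 74.1% of all tested genes, 37.4% higher and 36.8% lower. The called share of Fgf genes, 62.0%, was therefore near the background, and the count itself says nothing particular to them. The median log2 fold change was 0.19 over the tested Fgf genes and 0.01 over all tested genes. With upper-quartile scaling, which raised the median of all genes to 0.33, the split was 23 higher and 12 lower. All 20352 genes then split in the same sense, 8493 higher and 5692 lower, so small differences depend on the scaling.

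**Figure D1:**
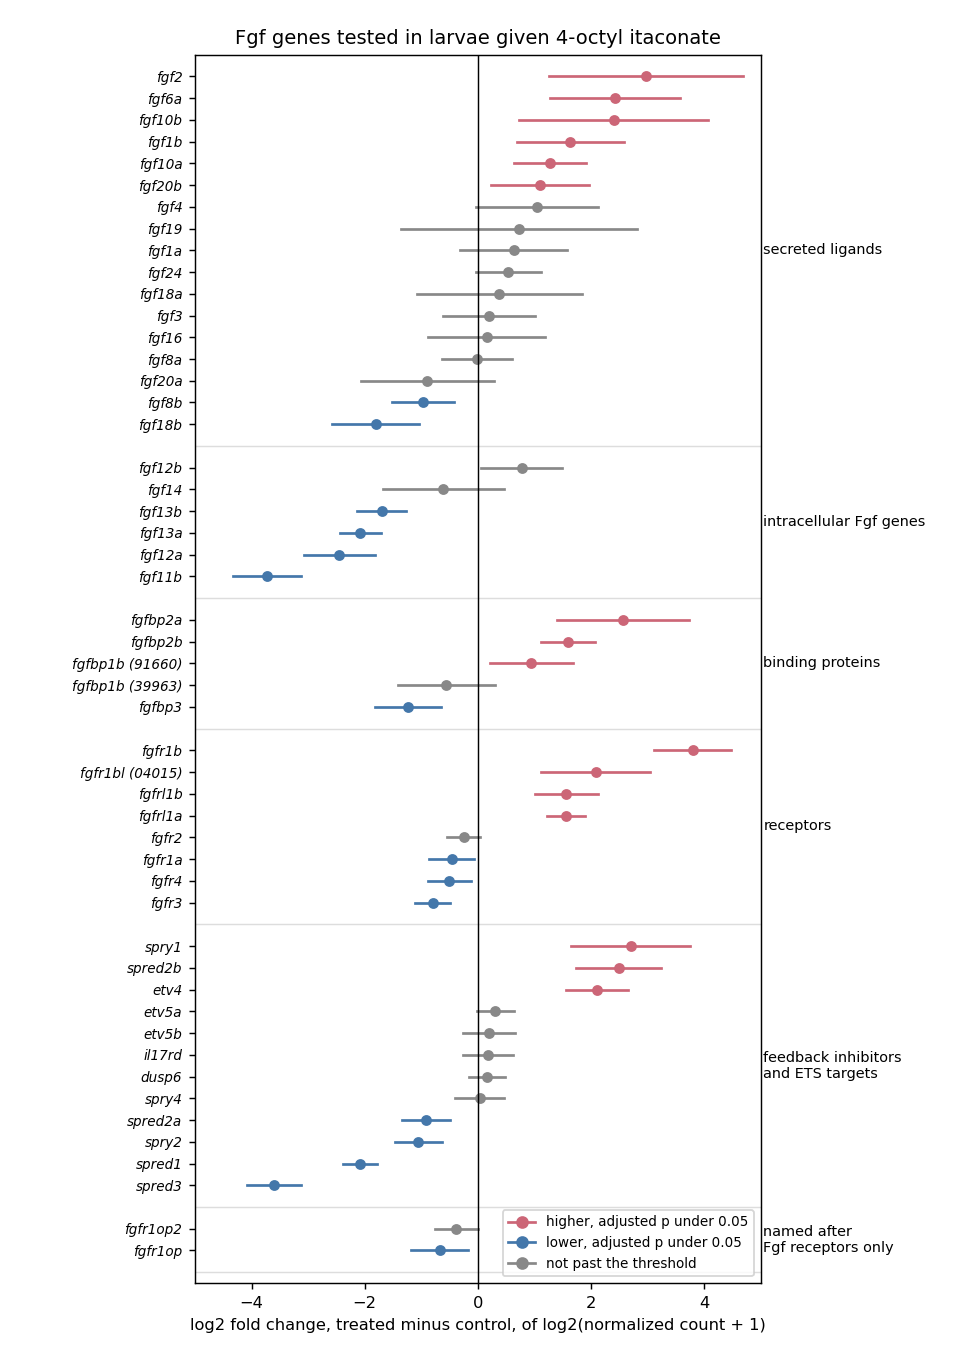
Log2 fold change (points, x axis, treated minus control on the scale log2(normalized count + 1)) with its 95% interval from limma (lines) for the 50 tested Fgf genes, grouped by role; digits in brackets are the end of the gene ID where a symbol stands on more than 1. Values run from -3.73 for fgf11b to 3.80 for fgfr1b, and every role except the intracellular genes and the genes named after receptors holds both red (higher) and blue (lower) points.

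Of 17 secreted ligand genes tested, 6 rose, 2 fell and 9 did not pass, with a median log2 fold change of 0.63. The called share, 47.1%, was below the 69.3% of all genes, of which 35.0% were higher and 34.3% lower. The fin and lateral line ligand gene fgf10a stood at 186, 106 and 118 normalized counts in treated replicates 1, 2 and 3 and at 56.1, 45.6 and 62.0 in control replicates 1, 2 and 3. The lowest treated library was above the highest control library, and the mean rose 2.51-fold, from 54.6 ± 8.34 to 137 ± 43.2 (log2 fold change 1.28, SE 0.28, limma adjusted p = 0.0034; SD, n = 3 per group, here and below). Its duplicate fgf10b was scarcer, at 33.6, 12.4 and 21.0 in treated and 2.01, 1.11 and 9.87 in control libraries, and rose with a log2 fold change of 2.40 (SE 0.73, limma adjusted p = 0.0167). The call for fgf10b was lost without treated replicate 3 or control replicate 1 or 2 (limma adjusted p = 0.0502, 0.052 and 0.0546), and without control replicate 3 its log2 fold change was 3.11.

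The gene fgf6a, a member of the subfamily known in mice for its expression in muscle, gave 102, 119 and 84.0 normalized counts in treated and 26.1, 29.9996 and 7.05 in control libraries. Control replicate 3 was lower than the other controls, and the groups did not overlap. The rise was 4.84-fold (log2 fold change 2.43, SE 0.51, limma adjusted p = 0.00238). Leaving out control replicate 3 gave a log2 fold change of 1.81. Skeletal muscle markers rose in the same larvae, by a median log2 fold change of 3.33. The other copy, fgf6b, had 5, 11 and 5 reads in treated and 1, 1 and 3 in control libraries and was too scarce to test with the main settings.

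Acidic and basic Fgf, encoded by the fgf1 genes and fgf2, lack a classical signal for secretion. Expression of fgf1b was 81.8, 32.6 and 45.8 in treated and 15.0, 18.9 and 12.7 in control libraries, with no overlap between groups, a 3.44-fold rise (log2 fold change 1.63, SE 0.42, limma adjusted p = 0.007). That of fgf2 was 20.2, 27.0 and 21.0 in treated and 3.01, 0.00 and 5.64 in control libraries, and control replicate 2 had no read. Its log2 fold change of 2.98 (SE 0.75, limma adjusted p = 0.00666) depended on the added constant, being 1.87 with a pseudocount of 5, and was 2.19 without control replicate 2 and 3.56 without control replicate 3. The rises of fgf2 and fgf10b were singled out after their values were seen, since both lie under a mean of 30 normalized counts in the higher group. For fgf1a the groups overlapped, at 32.5, 48.4 and 64.9 in treated and 19.0, 46.7 and 29.6 in control libraries (log2 fold change 0.63, 95% interval -0.32 to 1.58, limma adjusted p = 0.202). That gene passed as higher in 1 of the other settings.

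The fgf20 and fgf8 genes were unequal within their duplicates. Transcripts of fgf20b rose 2.19-fold, at 67.3, 44.9955 and 37.2 in treated and 16.0, 21.1 and 31.0 in control libraries (log2 fold change 1.105, SE 0.38, limma adjusted p = 0.0283). That call was lost under quantile normalization, with the replicate number as a block, and without treated replicate 1 or 2 or control replicate 1 or 2, with adjusted p of 0.0541 to 0.112. Its copy fgf20a, which zebrafish need to regrow fins, was lower in 2 of 3 treated libraries than in any control, at 11.2, 6.75 and 23.9 against 32.1, 21.1 and 19.7, and did not pass (log2 fold change -0.90, 95% interval -2.07 to 0.28, limma adjusted p = 0.15). Transcripts of fgf8b fell 1.96-fold, from 95.7 ± 3.33 to 48.7 ± 7.36 normalized counts; the 3 treated libraries lay at 43.9 to 57.2 and the 3 controls at 92.2 to 98.9 (log2 fold change -0.97, SE 0.24, limma adjusted p = 0.00627). Levels of fgf8a, the Fgf of the midbrain-hindbrain boundary, overlapped fully, at 104, 78.7 and 119 in treated and 120.3, 74.4 and 113 in control libraries, with a log2 fold change of -0.01 and a 95% interval of -0.64 to 0.61 (limma adjusted p = 0.965).

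The largest fall among secreted ligands past the threshold was that of fgf18b, whose mouse counterpart acts in cartilage and bone. It gave 28.0, 16.9 and 26.7 normalized counts in treated and 110.3, 84.4 and 63.4 in control libraries, with no overlap, and fell 3.60-fold (log2 fold change -1.80, SE 0.34, limma adjusted p = 0.00136). Cartilage, bone and fin markers rose in the same larvae, by a median of 1.68, and other lists, such as neurons and glia, fell. The part of these shifts in the fall of fgf18b was not tested. Its copy fgf18a was at 40.4, 52.9 and 285 in treated and 64.2, 54.4 and 78.9 in control libraries. Treated replicate 3 was far above all other libraries and the other treated libraries lay below every control. The log2 fold change of fgf18a, 0.38, did not pass (limma adjusted p = 0.611) and was -0.49 without treated replicate 3.

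Other ligands of lateral line, ear and fin development did not pass. Transcripts of fgf3, which with fgf10a patterns the lateral line primordium and with fgf8a induces the ear, stood at 115, 44.9955 and 59.18 normalized counts in treated and 57.1, 57.8 and 62.0 in control libraries. Treated replicate 1 alone was above the controls, treated replicate 2 was below them and treated replicate 3 lay among them (log2 fold change 0.19, 95% interval -0.62 to 1.01, limma adjusted p = 0.644; -0.19 without treated replicate 1). The pectoral fin ligand gene fgf24 was higher in every treated library, at 161, 97.9 and 109 against 80.2, 88.9 and 77.5, and did not pass (log2 fold change 0.54, 95% interval -0.03 to 1.11, limma adjusted p = 0.0842). It passed as higher in 1 of the other settings. For fgf4, a limb bud ligand in mice, control replicate 3 lay among the treated libraries, with 57.2, 63.0 and 86.9 in treated and 25.1, 18.9 and 70.5 in control libraries (log2 fold change 1.05, limma adjusted p = 0.0765; 1.60, adjusted p = 0.00585, without that library). In all, fgf4 passed as higher in 4 of the other settings, that one among them. Values of fgf16, a fin ligand gene, were 52.7, 16.9 and 23.9 in treated and 22.1, 28.9 and 24.0 in control libraries (log2 fold change 0.16, limma adjusted p = 0.771; -0.29 without treated replicate 1). In 10 of the 17 tested secreted ligand genes, treated replicate 1 was the highest treated library, against 39.4% of all tested genes.

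The hormone-like ligands, which in mammals act at a distance with klotho co-receptors, were near the limit of detection. Only fgf19, in human a gut-derived regulator of bile acid synthesis, was tested, at 39.2, 3.37 and 13.4 normalized counts in treated and 2.01, 11.1 and 14.1 in control libraries (log2 fold change 0.73, 95% interval -1.36 to 2.82, limma adjusted p = 0.494). Reads of fgf21, a liver hormone of fasting in mammals, were 2, 0 and 0 in treated and 4, 12 and 7 in control libraries, and those of fgf23, a regulator of phosphate in mammals, were 23, 5 and 4 and 3, 1 and 0. Neither was tested with the main settings, and the groups did not overlap in either gene. Liver markers rose by a median of 5.04, and fgf21 had fewer reads in treated libraries. Whether the 2 are related was not tested.

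Among scarce secreted ligands, fgf5 and fgf7 were seen in treated larvae only. Reads of fgf5 were 5, 4 and 14 in treated and 0 in all 3 control libraries, and those of fgf7, the keratinocyte growth factor in mammals, were 13, 8 and 2 in treated and 0 in all 3 control libraries. Against a floor of 3 reads over the control group, a limit that covers counting error only, their mean normalized counts were at least 6.66-fold and 7.23-fold higher. Skin markers rose in the same larvae, by a median of 1.75. The remaining scarce ligands, fgf17 with 5, 10 and 1 reads in treated and 4, 7 and 2 in control libraries and fgf22 with 4, 1 and 4 and 3, 2 and 1, overlapped between groups.

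**Figure D2:**
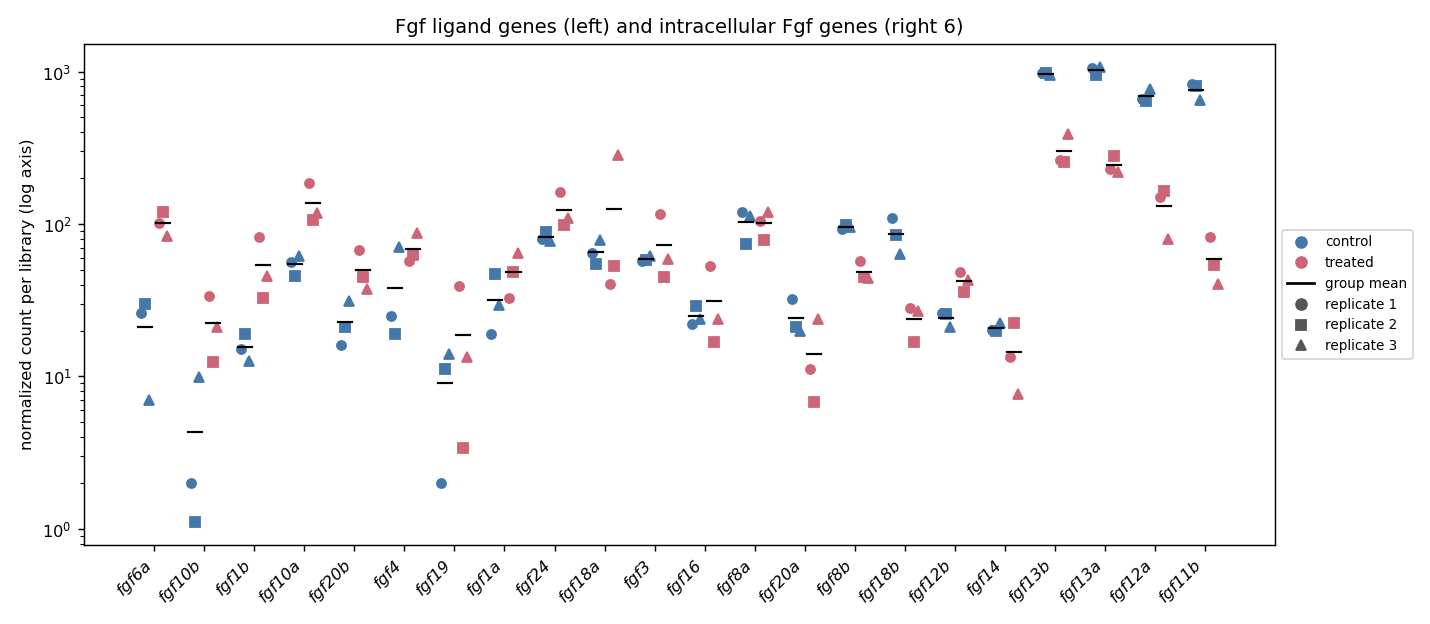
Normalized counts (y axis, log axis) of ligand genes and intracellular Fgf genes in each control (blue) and treated (red) library, with group means as bars; fgf2 is not drawn because control replicate 2 is at 0. The secreted ligand genes at the left end of the axis, such as fgf6a and fgf10a, show treated points above control points, while fgf11b, fgf12a, fgf13a and fgf13b at the right end drop from 639 to 1075 in controls to 40.1 to 392 in treated libraries.

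Intracellular Fgf genes fell or did not pass. The proteins of the fgf11 to fgf14 group are not secreted and do not work as ligands of Fgf receptors in the usual way; in mammals they bind voltage-gated sodium channels in neurons and other excitable cells. Of 6 tested, 4 fell, none rose and 2 did not pass, with a median log2 fold change of -1.89. The called share, 66.7%, was near the 69.3% of all genes, of which 34.3% were lower. The summed count of the 7 genes was 787 to 821 in treated and 3418 to 3555 in control libraries.

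Values of fgf11b were 81.8, 54.0 and 40.1 normalized counts in treated and 828, 800.0 and 653 in control libraries, 13.0-fold lower in treated larvae (log2 fold change -3.73, SE 0.27, limma adjusted p = 5.49e-06). Those of fgf12a were 150.2, 164 and 79.2 against 659, 639 and 767, 5.24-fold lower (limma adjusted p = 6.11e-05). The copies fgf13a and fgf13b fell 4.21-fold and 3.19-fold, to 244 ± 32.8 from 1026 ± 64.2 and to 303 ± 77.1 from 967 ± 17.2 (limma adjusted p = 7.43e-06 and 6.24e-05). In all 4 genes every treated library lay below every control. Neuron and glia markers in the same larvae had a median of -3.01. The scarcer copy fgf12b was higher in each treated library, at 48.2, 36.0 and 43.0 in treated and 26.1, 25.6 and 21.1 in control libraries, without overlap, and just missed the threshold (log2 fold change 0.78, 95% interval 0.07 to 1.49, limma adjusted p = 0.0512). It passed in 6 of the other settings, edgeR on the recovered reads among them (adjusted p = 0.0468). For fgf14 the groups overlapped, at 7.64 to 22.5 and 20.0 to 22.6 (log2 fold change -0.61, limma adjusted p = 0.271), and fgf11a, with 8, 7 and 6 reads in treated and 1, 0 and 5 in control libraries, lay under the mean of 10 normalized counts.

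Fgf-binding proteins, which in mammals release Fgf from heparan sulphate in the matrix, divided as well. Transcripts of fgfbp2a rose 6.91-fold, at 78.5, 27.0 and 44.9 normalized counts in treated and 5.01, 11.1 and 5.64 in control libraries (log2 fold change 2.57, SE 0.51, limma adjusted p = 0.00188). Those of fgfbp2b rose 3.06-fold, to 292 ± 50.4 from 95.4 ± 9.51 (limma adjusted p = 0.000161). Neither gene's groups overlapped. The most counted binding protein gene, fgfbp3, fell 2.22-fold, at 1303, 598 and 749 in treated and 1889, 2049 and 1948 in control libraries, with treated replicate 1 nearest the controls (log2 fold change -1.23, SE 0.26, limma adjusted p = 0.00244). The symbol fgfbp1b stood on 2 gene IDs, and RefSeq names the Entrez gene of ENSDARG00000039963 fgfbp1a. ENSDARG00000091660 was at 119.9, 64.1 and 61.1 in treated and 41.1, 36.7 and 42.3 in control libraries and passed with a log2 fold change of 0.94 (limma adjusted p = 0.0274), but not without treated replicate 1 (0.64, adjusted p = 0.0741), without any 1 control (0.0536 to 0.0752) or after quantile normalization (0.098). ENSDARG00000039963, at 48.2, 27.0 and 56.3 against 50.1, 91.1 and 52.2, did not pass (log2 fold change -0.55, limma adjusted p = 0.215). The sources used here do not state how reads were divided between these IDs.

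The receptor with the largest change was fgfr1b, which rose from near absence. It gave 152, 216 and 210.0 normalized counts in treated and 11.03, 11.1 and 16.9 in control libraries, a 14.8-fold rise from 13.0 ± 3.37 to 193 ± 35.1 (log2 fold change 3.80, SE 0.30, limma adjusted p = 9.27e-06). Every treated library was at least as high as 152, against a highest control of 16.9. Of the reads of the 5 kinase receptor genes, not corrected for gene length, fgfr1b held 3.37% to 5.15% in treated and 0.194% to 0.288% in control libraries.

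The other kinase receptors went down or did not pass. Transcripts of fgfr3, which in mice and humans limits the growth of cartilage, fell 1.74-fold, at 749, 758 and 688 in treated and 1173, 1277 and 1371 in control libraries (log2 fold change -0.80, SE 0.14, limma adjusted p = 0.000739). Those of fgfr4, in mammals the receptor for Fgf hormones in liver, were 1258, 897 and 933 against 1359.5, 1393 and 1576 (log2 fold change -0.50, SE 0.17, limma adjusted p = 0.0241). Those of fgfr1a, the copy active in the lateral line primordium, were 745, 570.3 and 664 against 1005, 756 and 977 (log2 fold change -0.46, SE 0.17, limma adjusted p = 0.0382). In the same larvae cartilage and liver markers had medians of 1.68 and 5.04, and neuron and glia markers one of -3.01. The part of such marker shifts in the receptor changes was not tested. Groups did not overlap in any of the 3 genes, but only fgfr3 kept its call in every setting. The log2 fold changes of fgfr4 and fgfr1a were -0.18 and -0.14 with upper-quartile scaling (adjusted p = 0.382 and 0.47) and -0.15 and -0.06 after quantile normalization (0.481 and 0.782). Both also missed the threshold without an intensity trend (adjusted p = 0.0603 and 0.0789), without treated replicate 2 (0.0753 and 0.115) and without treated replicate 3 (0.0747 and 0.0737), and fgfr4 also without any 1 control (0.051 to 0.0963). For fgfr1a this was so too with TMM scaling (0.0504), with edgeR on whole reads (0.0512), and without control replicate 1 or 3 (0.137 and 0.129). The most counted receptor gene, fgfr2, was lower in all treated libraries, at 1616, 1754 and 1648 against 2141, 1910.0 and 1928, and did not pass (log2 fold change -0.25, 95% interval -0.54 to 0.04, limma adjusted p = 0.105), with the sign turned by upper-quartile scaling (0.07) and quantile normalization (0.05). With total-read scaling it passed as lower (-0.36, adjusted p = 0.0489).

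Receptor-like genes all rose where they could be tested. Of the 8 tested receptor and receptor-like genes together, 7 passed, 4 higher and 3 lower. That share of 87.5% stood beside 69.3% of all tested genes, 35.0% higher and 34.3% lower. It did not hold across settings, since the calls of fgfr1a and fgfr4 were often lost. With upper-quartile scaling, quantile normalization or no intensity trend, 4 were higher and only 1 lower. The same counts came without treated replicate 2 or 3 and without control replicate 1 or 3. The products of fgfrl1a and fgfrl1b bind Fgf but lack the tyrosine kinase. Values of fgfrl1a were 683, 709.8 and 764 in treated and 237, 259 and 235 in control libraries, 2.95-fold higher in treated larvae (log2 fold change 1.56, SE 0.15, limma adjusted p = 2.29e-05). Those of fgfrl1b were 383, 373 and 440.0 against 149, 172 and 93.0, 2.89-fold higher (limma adjusted p = 0.00046). All treated libraries were above all controls in both genes, and cartilage, bone and fin markers in the same larvae had a median of 1.68. The symbol fgfr1bl stood on 2 gene IDs. ENSDARG00000104015 was at 41.5, 63.0 and 52.5 in treated and 19.0, 7.78 and 9.87 in control libraries (log2 fold change 2.08, SE 0.42, limma adjusted p = 0.00203). ENSDARG00000075027 had 0, 8 and 4 reads in treated and 0, 1 and 0 in control libraries. Reads can be divided between these IDs and fgfr1b, so their separate values are uncertain.

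**Figure D3:**
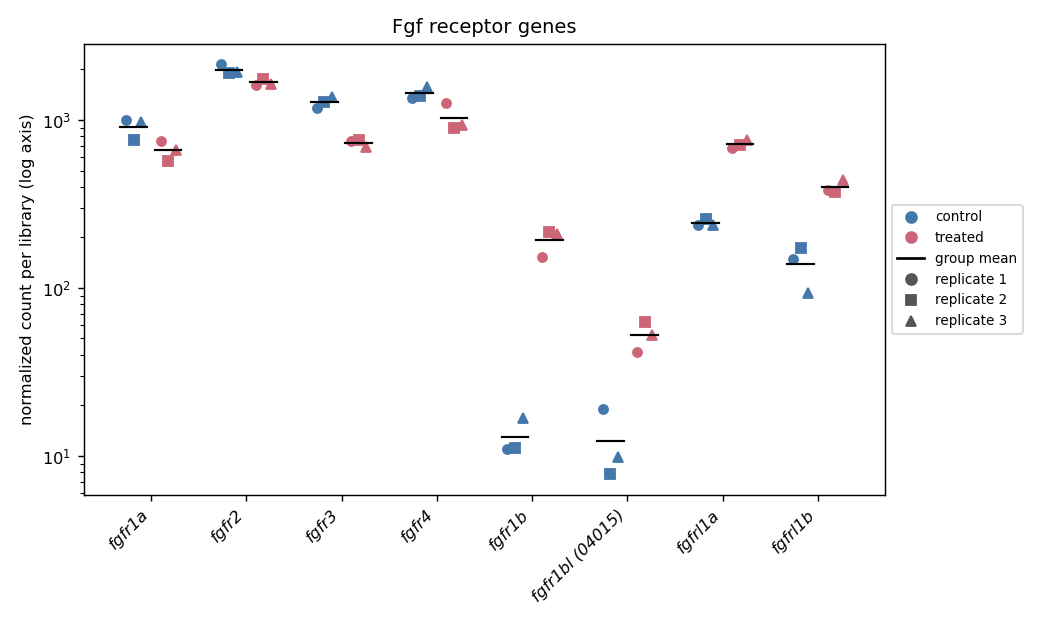
Normalized counts (y axis, log axis) of the 8 tested receptor and receptor-like genes in each control (blue) and treated (red) library, with group means as bars. The treated points of fgfr1a, fgfr2, fgfr3 and fgfr4 lie below the control points, and those of fgfr1b, fgfr1bl, fgfrl1a and fgfrl1b lie above them.

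Feedback inhibitors did not move as a block. Of 9 tested, 2 rose, 4 fell and 3 did not pass, with a median log2 fold change of 0.03. Their called share was 66.7%, near the 69.3% of all genes (35.0% higher and 34.3% lower). The summed count of the 9 genes was 4236 to 4743 in treated and 6990 to 7363 in control libraries.

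The 3 feedback inhibitor genes that did not pass were dusp6, spry4 and il17rd. The Erk phosphatase gene dusp6 stood at 2032, 1729 and 1614 normalized counts in treated and 1558, 1630.0 and 1591 in control libraries. Its groups overlapped, and the log2 fold change was 0.16 with a 95% interval of -0.15 to 0.48 (limma adjusted p = 0.313). For spry4 the values were 521, 348 and 395 and 448, 388 and 383 (log2 fold change 0.03, 95% interval -0.39 to 0.46, limma adjusted p = 0.878). The gene il17rd, which encodes the membrane inhibitor Sef, stood at 316, 249 and 314 and 258, 216 and 303 (log2 fold change 0.18, 95% interval -0.26 to 0.63, limma adjusted p = 0.4225). These intervals leave room for differences of up to 0.63 on the log2 scale, and with upper-quartile scaling dusp6 and il17rd passed as higher (log2 fold changes 0.48 and 0.50, adjusted p = 0.0155 and 0.0413). After quantile normalization dusp6 passed as well (0.47, adjusted p = 0.0193), and spry4 changed sign without treated replicate 1 (-0.13, adjusted p = 0.451).

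Sprouty genes differed from each other. The scarce copy spry1 rose 6.83-fold, at 44.8, 50.6 and 39.1 normalized counts in treated and 11.03, 4.44 and 4.23 in control libraries (log2 fold change 2.71, SE 0.46, limma adjusted p = 0.000775). The more counted spry2 fell 2.04-fold, at 909, 570.3 and 668 against 1506, 1361 and 1508 (log2 fold change -1.05, SE 0.19, limma adjusted p = 0.000916). Neither overlapped between groups, and both kept their call in every setting in which they were tested.

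Spred genes, whose products hold back the Ras to Raf step, showed the largest falls of the feedback class. Transcripts of spred3 fell 12.3-fold, at 90.8, 99.0 and 65.9 in treated and 1109, 872 and 1153 in control libraries (log2 fold change -3.61, SE 0.21, limma adjusted p = 2.28e-06). Those of spred1 fell 4.25-fold, at 384, 448 and 423 against 1764, 1818 and 1755 (log2 fold change -2.09, SE 0.13, limma adjusted p = 3.29e-06). Within each group the spred1 values lay within a narrow range, while the groups were far apart. The copy spred2a fell 1.86-fold, at 267, 403 and 332 against 663, 637 and 561 (limma adjusted p = 0.00221), and spred2b rose 5.95-fold, at 177, 362 and 385 against 47.1, 64.4 and 43.7 (limma adjusted p = 0.000162). Treated replicate 1 was the lowest treated library in both spred2 genes.

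ETS-family targets taken by the rule included 1 clear rise. The gene etv4, also known as pea3, was at 329.6, 596 and 552 normalized counts in treated and 103, 113 and 114 in control libraries, 4.47-fold higher in treated larvae (log2 fold change 2.10, SE 0.24, limma adjusted p = 7.38e-05). Treated replicate 1 was the lowest treated library and was still far above every control. Of its relatives, etv5a was higher in all treated libraries by a small margin, at 680.4, 772 and 767 against 648, 577 and 565, and did not pass (log2 fold change 0.31, 95% interval -0.01 to 0.63, limma adjusted p = 0.0787). Values of etv5b, known as erm, overlapped, at 398, 551 and 665 against 491, 424 and 462 (log2 fold change 0.20, 95% interval -0.26 to 0.66, limma adjusted p = 0.404). Without treated replicate 1 both passed as higher, with log2 fold changes of 0.37 and 0.40 (adjusted p = 0.0245 and 0.03), and both passed with upper-quartile scaling (0.63 and 0.52) and quantile normalization (0.68 and 0.52). The gene etv5a passed with TMM scaling and arrayWeights too (adjusted p = 0.0487 and 0.0276).

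**Figure D4:**
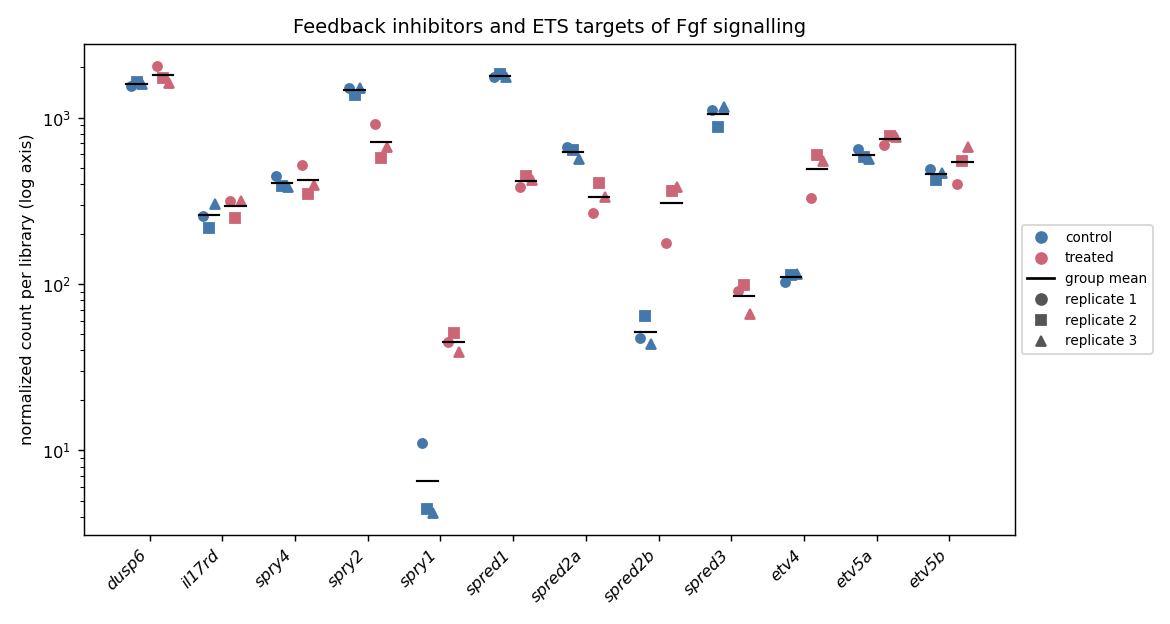
Normalized counts (y axis, log axis) of 9 feedback inhibitor genes and 3 ETS-family target genes in each control (blue) and treated (red) library, with group means as bars. Red and blue points overlap for dusp6, il17rd, spry4 and etv5b, red points lie above for spry1, spred2b, etv4 and etv5a, and below for spry2, spred1, spred2a and spred3.

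Duplicated Fgf genes often responded unequally, which was tested on the log2 ratio of the a copy to the b copy in each library. Pairs were taken by symbol, where the a and the b symbol each stood on 1 gene ID and both copies were tested. The fgfbp1 genes, which share the symbol fgfbp1b, were therefore left out. Of the 12 Fgf pairs so taken, 6 differed between groups at a limma adjusted p of 0.05, beside 60.8% of the 2431 such pairs in the whole table. The share of Fgf pairs was thus not above the background. The largest difference among these 12 was in fgfr1. Its a copy exceeded its b copy by 6.39, 5.97 and 5.77 on the log2 scale in control replicates 1, 2 and 3 and by 2.28, 1.40 and 1.66 in treated replicates 1, 2 and 3 (difference -4.26, SE 0.34, limma adjusted p = 0.00015).

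In the spred2 pair the a copy led by 3.79, 3.28 and 3.65 in controls and was about level with the b copy, at 0.59, 0.15 and -0.21, in treated libraries (difference -3.40, SE 0.29, limma adjusted p = 0.000161). For fgf12 the lead of the a copy was 4.61, 4.59 and 5.12 in controls and 1.62, 2.16 and 0.87 in treated libraries (difference -3.22, SE 0.38, limma adjusted p = 0.000476). These 3 pairs, in which the groups did not overlap, passed in every setting in which they were tested, 18 for fgfr1 and spred2 and 17 for fgf12; pairs were not run with TMM scaling, edgeR or DESeq2. The other differences that passed were smaller against their spread. They were those of fgf8 (difference 0.95, SE 0.30, limma adjusted p = 0.0277), fgf18 (difference 2.19, SE 0.71, limma adjusted p = 0.0321) and fgf20 (difference -2.001, SE 0.62, limma adjusted p = 0.0276), and their calls were lost without treated replicate 3, control replicate 2 or control replicate 3 (fgf8), without treated replicate 2, control replicate 1 or control replicate 2 (fgf18), and without treated replicate 1 or 2, control replicate 1 or 2, or with the replicate block (fgf20, adjusted p = 0.0514 under the block). In fgf20 the libraries of the groups also overlapped. The fgf18 difference was 1.41 without treated replicate 3 and 2.84 without treated replicate 1.

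The other 6 pairs did not pass, which does not show that their copies respond alike. The difference between the responses of fgfrl1a and fgfrl1b was -0.01, with a 95% interval of -0.62 to 0.60, and that between etv5a and etv5b was 0.11, with an interval of -0.41 to 0.63. For fgf13 it was -0.38, with an interval of -1.05 to 0.29. The pairs of fgf1, fgf10 and fgfbp2 had less certain differences (limma adjusted p = 0.151, 0.106 and 0.137), with wide intervals of -2.29 to 0.29, -2.39 to 0.14 and -0.23 to 2.199. That of fgf1 passed with the replicate number as a block (0.0339), that of fgf10 without control replicate 3 (0.00686) and that of fgfbp2 without treated replicate 2 (0.0398). With the filter lowered to a mean of 1, or with none, the fgf6 and fgf11 pairs were tested as well. The fgf6 pair did not pass (difference 0.92, limma adjusted p = 0.402 and 0.403). The fgf11 pair passed with a difference of 5.46 (limma adjusted p = 0.00187 and 0.0019), which made 7 Fgf pairs called. Of all pairs, 1543 of 2731 passed at a mean of 1 and 1546 of 2745 without a filter. The fgf11 difference was larger than that of fgfr1. However, fgf11a had only 8, 7 and 6 reads in treated and 1, 0 and 5 in control libraries. The size of the fgf11 difference therefore rests on very low counts.

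**Figure D5:**
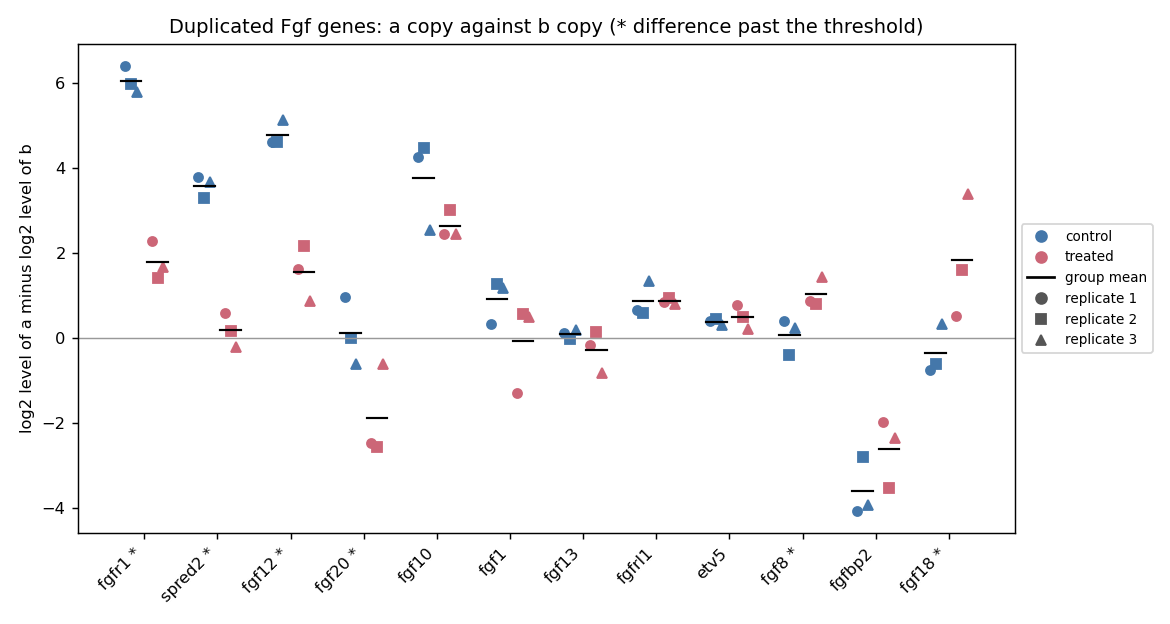
Log2 level of the a copy minus that of the b copy (y axis, from log2(normalized count + 1), not corrected for gene length) for 12 duplicated Fgf genes in each control (blue) and treated (red) library, with group means as bars. Stars mark the 6 pairs whose difference between groups passed; in fgfr1, spred2 and fgf12 the lead of the a copy is smaller in treated libraries, by differences of -4.26, -3.40 and -3.22.

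Several Fgf genes lie next to each other, which the choice by name did not use. In the RefSeq table of assembly GRCz12tu, 58 of the 59 genes were matched by Entrez ID. There fgf3, fgf4 and fgf19 follow one another with no protein-coding gene between them, and none of the 3 passed. The genes fgf1b and spry4 are direct neighbours too, and fgf1b rose while spry4 had a log2 fold change of 0.03 that did not pass. The genes fgf23 and fgf6b are also adjacent, and both were too scarce to test with the main settings. Each fgfbp2 gene has an fgfbp1 gene beside it, and the fgfbp2 genes had log2 fold changes of 2.57 and 1.59 against -0.55 and 0.94 for their respective neighbours. The genes spry1 and fgf2 have 2 protein-coding genes between them, and both rose, 6.83-fold and 7.89-fold.

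Genes that pass the Fgf signal on also moved in both directions. Of 41 tested adaptor, Ras and Erk cascade genes, 11 rose, 11 fell and 19 did not pass, with a median log2 fold change of 0.05, beside the background of 69.3% of all genes called. The members with the smallest p were the adaptor gene shc1, the Erk-activated kinase gene rps6ka1, the Ras gene hrasb and the Erk-activating kinase gene map2k1, which fell 2.92-fold, 2.296-fold, 5.18-fold and 2.27-fold (limma adjusted p = 2.37e-05, 9.91e-05, 0.000103 and 0.000117).

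Of 35 co-receptor and heparan sulphate genes tested, 14 fell, 9 rose and 12 did not pass, with a median of -0.19, beside 34.3% of all genes lower and 35.0% higher. The heparan sulphate sulphatase gene sulf2b fell 7.64-fold, from 5449.8 ± 294 to 713 ± 150.0 normalized counts, and the sulphotransferase gene ndst1a fell 9.21-fold. The syndecan gene sdc2 rose 6.58-fold and flrt3, which encodes a membrane partner of Fgf receptors, fell 3.81-fold (limma adjusted p = 2.15e-06, 2.62e-06, 3.12e-06 and 6.02e-06). The klotho co-receptor genes klb and kl, picked out after their values were seen, rose from 3.12 ± 1.74 to 37.7 ± 6.36 and from 11.4 ± 3.88 to 33.2 ± 6.83 (limma adjusted p = 0.000502 and 0.0106).

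Of 31 other genes known as targets of Fgf or Erk signalling, 14 fell, 5 rose and 12 did not pass, with a median of -0.40, beside 34.3% of all genes lower and 35.0% higher. The early response gene egr1, which Erk induces in many cell types and which neuronal activity also induces, fell 5.89-fold, at 430.5, 373 and 309 normalized counts in treated and 2404, 1916 and 2233 in control libraries (limma adjusted p = 3.80e-06). Its relative egr2b, a hindbrain gene, and the Notch target her4.1 fell 3.64-fold and 3.97-fold, and the cartilage regulator gene sox9a rose 6.56-fold (limma adjusted p = 8.59e-05, 6.09e-05 and 2.17e-05). The medians of the neuron and cartilage marker lists, given above, were -3.01 and 1.68. The cartilage list itself holds sox9a.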

How the data were processed

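RNA was measured in 3 treated and 3 control libraries of larvae. The signal values are the authors' deposited normalized counts per gene. Build GRCz11 and the tools Salmon 1.9.0, STAR 2.7.10a, DESeq2, fastp 0.23.2 and bcl2fastq 2.20.0.422 were used, per the submitters' processing notes; the sources used here give neither their roles nor the handling of reads shared between similar genes. Every value was within 0.01 of a whole multiple of its library's smallest step, which gave whole reads. The 20352 genes whose mean reached 10 normalized counts were fitted on the log2 scale, after adding 1, with limma 3.58.1 (R 4.3.3, intensity trend, two-sided, no covariate), and p-values were adjusted over them by Benjamini-Hochberg. On that scale changes of low genes are understated; a fold is the ratio of the group means. Ratios of a to b copies were fitted in the same way over 2431 pairs. With 3 against 3 libraries an exact permutation test of a single gene cannot go below 0.1. Members and lists were chosen with earlier results of these data known. Genes were named by rule: all receptors and feedback genes, and the ligands and binding proteins with the largest changes past the threshold whose groups did not overlap and whose higher group averaged 30 normalized counts or more, both copies of each pair that passed, and fgf3, fgf8a, fgf10a and fgf20a. The remaining ligands, intracellular genes and binding proteins are outside that rule and were added, with their values seen, so that every member is accounted for. Alternatives covered pseudocount, filter, scaling, limma options, a replicate block, each library left out, edgeR 4.0.16 and DESeq2 1.42.0. Fits were also run on simulated data in which far fewer genes changed than passed here, so that run does not cover these data. Sequences were not analysed here.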

Additional observations from a re-analysis of the deposited data

How the results depend on the processing

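Of the 37 Fgf genes tested in all 21 other settings, 21 kept their direction and their side of the threshold in each, among them 20 of the 24 called. The other 13 were left out of 1 or more settings by a filter on low values, and 8 of them kept both where tested, among them 5 of the 7 called. Leaving out 1 library gave 13 to 16 Fgf genes higher and 12 to 16 lower, 12583 to 14873 genes called in all, and 3 to 6 Fgf pairs, the 3 without control replicate 2. A filter at a mean of 50 normalized counts left 9 Fgf genes higher, since fewer genes were tested. Of the 15508 genes tested there in all, 5502 were higher. With the filter lowered to a mean of 1, or with none, scarce genes were tested too. Then 19 Fgf genes were higher and 16 lower, among them 9 and 3 secreted ligands. Of all genes, 7704 were higher and 7362 lower of 24207 at a mean of 1, and 7712 and 7363 of 24451 without a filter. The genes added there had means under 10 normalized counts, among them fgf5 and fgf7, at 0 in every control library. The tools edgeR and DESeq2 called 17 and 16 Fgf genes higher and 14 and 15 lower. Of all 20352 genes they called 7335 and 7223 higher and 6698 and 6844 lower. Signs changed in genes and pairs that did not pass. With upper-quartile scaling the log2 fold changes of fgf8a and fgfr2 were 0.304 and 0.0707. After quantile normalization fgf3, fgf16 and fgfr2 were at -0.0627, -0.206 and 0.0468, and the fgfrl1 pair at 0.137. With arrayWeights fgf3, fgf16, fgf8a and spry4 were at -0.0321, -0.0849, 0.00356 and -0.0686, and the etv5 and fgfrl1 pairs at -0.00911 and 0.0126. For fgf8a TMM scaling gave 0.0234 and edgeR 0.0169; for spry4 total-read scaling, added after seeing the data, gave -0.0712; for the fgfrl1 pair a pseudocount of 5 gave 0.00513. With 1 library left out the ranges were -0.188 to 0.482 for fgf3, -0.228 to 0.151 for fgf8a, -0.292 to 0.501 for fgf16, -0.486 to 0.91 for fgf18a, -0.129 to 0.163 for spry4, -0.031 to 0.252 for the etv5 pair and -0.145 to 0.227 for the fgfrl1 pair. The cause was not tested. Same-numbered treated and control libraries did not deviate together (r = -0.02, -0.06 and 0.05 across genes), and treated replicate 1 correlated best with control replicate 2. With 3 libraries per group and treated replicate 1 apart from the others, these values cannot show whether the numbers pair the libraries. With the replicate block 16 Fgf genes were higher, 15 lower and 6 pairs called, of 13679 genes called in all. Depth limits the 9 genes too scarce to test with the main settings and the 2 ligands seen in treated larvae only.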

Other observations

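The rule by name also took fgfr1op and fgfr1op2, which are named after a human receptor fusion and are not receptors; fgfr1op encodes a centrosome protein. Values of fgfr1op were 250.0, 237 and 336 normalized counts in treated and 548, 429 and 345 in control libraries (log2 fold change -0.67, limma adjusted p = 0.0231), and it missed the threshold without treated replicate 2 (0.0711), without control replicate 1 or 2 (0.099 and 0.0621), and with upper-quartile or quantile scaling (0.171 and 0.0927). Those of fgfr1op2 were 392, 339.7 and 423 against 435, 544 and 524 and did not pass (log2 fold change -0.38, limma adjusted p = 0.0687). That gene passed as lower in 2 of the other settings. The summed counts of the 5 kinase receptor genes were 4144 to 4521 in treated and 5347 to 5869 in control libraries. Those of the fgfrl1 genes were 1066 to 1204 against 328 to 431. Those of etv4, etv5a and etv5b, the 3 ETS-family genes of the rule, were 1408 to 1984 against 1114 to 1242. That last sum leaves out etv1, whose fall is given below. Groups did not overlap in any of these sums, and 74.1% of all tested genes taken singly did not overlap either. The sums of all other roles except the hormone-like ligands did not overlap either, and sums were not recomputed with other scalings. Of the kinase receptor genes that were lower, only fgfr3 kept its call in every setting. Among the 3 ETS-family genes of the rule only etv4 passed with the main settings. Their relative etv1, which the name rule leaves out, is in the list of other targets and fell 5.40-fold. It stood at 87.4, 130 and 49.6 normalized counts in treated and 516, 460 and 468 in control libraries (log2 fold change -2.52, limma adjusted p = 0.000125).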
